A study of Mus musculus with 2 samples.

Results

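Genes of heme breakdown, iron storage and the oxidative stress response were followed through the immune cells of MC38 tumors. They are *Hmox1*, *Nqo1*, *Gclm*, *Txnrd1*, *Slc7a11*, *Srxn1*, *Fth1*, *Ftl1*, *Slc40a1* and *Prdx1*, chosen for the functions of their products, and all 10 were found by symbol among the 27031 genes of the count table. MC38 is a mouse colon adenocarcinoma line, grown here under the skin of female C57BL/6 mice aged 6 to 8 weeks. From the day of implantation the mice received vehicle or telmisartan, a blocker of the angiotensin receptor AT1, by gavage once a day at 5 mg/kg. On day 13 the tumors were harvested and live CD45+ leukocytes were sorted from them. The sorted cells of 5 mice per group were pooled. Both pools went through 1 BD Rhapsody capture, in which Sample Tag 1 marked control cells and Sample Tag 2 telmisartan cells. Each group is therefore 1 pool without replicates, and no test between the groups was possible.

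Heme oxygenase 1, the product of *Hmox1*, opens the heme ring and releases iron, carbon monoxide and biliverdin. The iron is stored in ferritin, a shell of heavy (*Fth1*) and light (*Ftl1*) chains, or leaves the cell through ferroportin (*Slc40a1*). The transcription factor NRF2 (*Nfe2l2*), held in check by KEAP1, drives most of these genes through antioxidant response elements, together with enzymes of the glutathione and thioredoxin systems, while BACH1 represses *Hmox1* until heme displaces it. Macrophages that clear red cells and cell debris are known for high heme oxygenase and ferritin.

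The tags assigned 8738 cells to control and 10222 to telmisartan, with 54619115 and 42401764 UMIs (unique molecular identifiers, each standing for 1 captured transcript). Mitochondrial transcripts made up a median of 12.1% of UMIs in tagged control cells and 23.3% in tagged telmisartan cells, and the limits on cell quality left 58.1% of the former and 47.3% of the latter. After removal of likely doublets, 4537 control cells with a median of 8732 UMIs and 4432 telmisartan cells with a median of 6368.5 UMIs remained. Depth and mitochondrial share thus differed between the groups, and with 1 pool each they cannot be told apart from treatment.

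Clusters were named from marker genes. Macrophage-like cells, whose clusters carried at least 10 of 11 macrophage or monocyte markers, made up 4053 control and 3999 telmisartan cells. The clusters of other classes carried 6 to 10 of these markers as well, and were named from 5 to 8 markers of their own type. Dendritic-like cells numbered 364 and 296, T-like cells 73 and 113, and neutrophil-like cells 47 and 24. CPM, the unit of level used throughout, is the number of UMIs of a gene per 1000000 UMIs of the same cells. B cell and NK cell markers were close to 0 in macrophage-like cells, at 0.287 and 0.627 CPM in control. A second clustering divided the macrophage-like cells into 7 subclusters, called here by leading genes. They were led by *Tnfsf15* and *Ereg*, by *Serpina3g* and *Cxcl9*, by *Gas6* and *Folr2*, by the interferon-induced *Ifit3*, by *Serpinb2* and *Gipr*, by the mitotic gene *Ccna2*, and by the S-phase gene *Ung*. The *Serpina3g* subcluster held the most macrophage-like cells in control (1334) and the *Tnfsf15* subcluster in telmisartan (1117), which stands beside every ratio over the whole class. In another division, made without the members and list genes and described further on, the *Tnfsf15*-led subcluster held the most in both groups (1477 and 1082) and the *Serpina3g*-led one 458 and 191, so these sizes depend on how the subclusters are drawn. All intervals given are 95% intervals, exact Poisson for a level, exact conditional binomial for a ratio and Clopper-Pearson for a share, and they cover counting error only.

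In macrophage-like cells, *Hmox1* and *Txnrd1* were the members that stood at least 1.5-fold higher with telmisartan, *Srxn1* came close to that size, and no member was 1.5-fold lower. Of the 10 members, 8 had at least 100 UMIs, and *Nqo1* and *Slc40a1* fell below that minimum. Among the 11075 genes with as many UMIs, 4.73% were at least 1.5-fold higher and 2.24% at least 1.5-fold lower. The 2 members past that size lay only just beyond it, and *Hmox1* reached it in 9, *Txnrd1* in 10 and *Srxn1* in 4 of 17 alternative ways of processing. Of the 8 members, 6 were higher and 2 lower, and their median log2 ratio of telmisartan to control was 0.15, against −0.05 over all genes tested, whose quartiles were −0.20 and 0.14 and of which 57.1% were lower. Left as UMIs per cell with no scaling for depth, the median of the members was −0.26 and that of all genes −0.46, a shift that is the same for every gene and leaves the gap between them as it was.

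*Hmox1* had, together with *Txnrd1*, the largest difference, and it was the more unevenly spread of the 2. Its level was 309.9 CPM in control (304.4 to 315.5) and 470.3 CPM in telmisartan (462.4 to 478.4), a log2 ratio of 0.60 (0.57 to 0.64). That ratio did not run through the macrophage states. *Hmox1* was higher with telmisartan in the *Serpinb2* subcluster, at 2196 CPM in control and 2922.2 CPM in telmisartan (log2 ratio 0.41, 0.36 to 0.46). In the *Gas6* subcluster it was 433.8 and 525.7 CPM (0.28, 0.21 to 0.35). In the *Tnfsf15* subcluster it was lower, at 162.2 and 99.1 CPM (−0.71, −0.84 to −0.58). The *Ung* subcluster also had less, 145.9 and 72.1 CPM (−1.02, −1.44 to −0.61). In the *Serpina3g*, *Ifit3* and *Ccna2* subclusters the interval of the ratio included 0. When each subcluster was given the weight it had over both groups together, the ratio over all macrophage-like cells was 0.23, and without the *Serpinb2* subcluster it was 0.20, so in this division the difference was smaller within states than across the whole class.

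*Hmox1* is among the 10 leading genes of the *Serpinb2* subcluster, so its level there is a description. For this reason the macrophage-like cells were clustered again without the members and without the genes of the lists described further on. A *Serpinb2*-led subcluster formed again, with 916 cells, of which 95.5% came from the earlier one. It held 387 control cells, 9.55% of macrophage-like cells (8.66 to 10.5%), and 529 telmisartan cells, 13.2% (12.2 to 14.3%). *Hmox1* there was 2129.7 CPM in control and 2725.8 CPM in telmisartan (log2 ratio 0.36, 0.30 to 0.41). These few cells held 34.7% of the *Hmox1* UMIs of control macrophage-like cells and 49.1% of those with telmisartan. The *Tnfsf15*-led and *Gas6*-led subclusters of this second division had *Hmox1* ratios of −0.76 and 0.39, with 59.1% and 87.9% of their cells from the earlier ones of those names. The *Serpina3g*-led one was lower there, at −0.30 with an interval below 0.

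Over the whole class the transcript of the heavy ferritin chain differed little, and that of the light chain was higher by less than 1.5-fold. *Fth1*, the heavy chain that oxidizes iron for storage, was 11200 CPM in control and 11061 CPM in telmisartan (log2 ratio −0.02, −0.03 to −0.01). Its subclusters went in both directions. In the *Tnfsf15* subcluster *Fth1* was 16385 and 10920 CPM (−0.58), and in the *Ifit3* subcluster 7846.4 and 9837.5 CPM (0.33). Without the members and list genes in the clustering, the *Tnfsf15*-led ratio was −0.27, so its size depended on how that subcluster was drawn. *Ftl1*, the light chain, was 3373.2 and 3923 CPM (0.22, 0.21 to 0.23, but −0.19 with no scaling) and was higher with telmisartan in 6 of 7 subclusters, the exception being the *Tnfsf15* subcluster. Ferritin genes have near-identical copies, one of which, *Ftl1-ps1*, has its own column at 371.7 and 415.4 CPM (0.16). Reads could be split between such copies, so the values of *Fth1*, *Ftl1* and likewise *Prdx1* are uncertain to that extent.

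*Slc40a1*, the only known exporter of iron from cells, was nearly undetected in macrophage-like cells, with 26 UMIs in control and 17 in telmisartan (0.679 and 0.598 CPM). The interval of its log2 ratio, −1.16 to 0.75, allows a difference in either direction at this depth. More of its transcript per UMI was found in neutrophil-like cells, where 14 UMIs in 6 of 47 control cells gave 153.7 CPM and 9 UMIs in 6 of 24 telmisartan cells gave 190.4 CPM. No UMI was found in dendritic-like or T-like cells, which allows up to 1.03 CPM in control dendritic-like cells and 6.62 CPM in control T-like cells, taking 3 counts as the limit.

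Hemoglobin and other erythrocyte genes, which would mark red cells or their debris, were rare. Summed over 7 genes they gave 165 UMIs in control and 27 in telmisartan macrophage-like cells, or 4.31 and 0.95 CPM (log2 ratio −2.18, −2.83 to −1.59), with *Hba-a1* the most abundant. None of the 7 reached 100 UMIs on its own. The *Serpinb2* subcluster had most of them per UMI in control, 20.7 CPM from 44 UMIs, and 0.785 CPM from 2 UMIs in telmisartan (−4.72, −7.81 to −2.78). *Hmox1* was higher with telmisartan in that subcluster. In the *Tnfsf15* subcluster, where *Hmox1* was lower, erythrocyte transcripts were lower too, with 49 and 6 UMIs (−3.30, −4.82 to −2.08). They were also lower in the *Gas6* subcluster, where *Hmox1* was higher, with 34 and 9 UMIs (−1.72, −2.96 to −0.63). The *Ifit3* subcluster had 3 and 5 UMIs (−0.11, −2.47 to 2.57). Whether erythrocyte transcripts and *Hmox1* are related was not tested.

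The cystine and glutathione members did not share a direction. *Slc7a11* encodes the light chain of the cystine/glutamate exchanger that feeds glutathione synthesis, and its level was 160.1 CPM in control and 164.7 CPM in telmisartan (log2 ratio 0.04, −0.01 to 0.10). This near equality covered opposite differences. In the *Tnfsf15* subcluster *Slc7a11* was 295.8 and 160.7 CPM (−0.88, −0.98 to −0.78). In the *Gas6* subcluster it was 61 and 96 CPM (0.65, 0.47 to 0.83). The same directions were found in the division made without list genes, with ratios of −0.47 and 0.65. *Gclm*, the modifier subunit of the enzyme that starts glutathione synthesis, was 74.3 and 63.5 CPM (−0.23, −0.31 to −0.14). It was lower with telmisartan in 6 of 7 subclusters and higher in the *Serpinb2* subcluster, at 105.5 and 133.9 CPM (0.34, 0.10 to 0.59). In the division without list genes that higher value shrank to an interval that included 0.

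*Txnrd1*, the cytosolic thioredoxin reductase, was 98 CPM in control (94.8 to 101.1) and 148.4 CPM in telmisartan (144 to 153), a log2 ratio of 0.60 (0.54 to 0.66). Unlike *Hmox1*, it was higher with telmisartan in all 7 subclusters, from 0.05 in the *Ung* subcluster to 0.92 in the *Ifit3* subcluster, and the interval lay above 0 in 6 of them. In the division without list genes it was higher in all 8 subclusters, with 6 intervals above 0. There, 78.2% of the *Ifit3* subcluster fell into a subcluster led by *Retnla* and *Plac8*, with a ratio of 0.87, and 14.9% into an *Ifit3*-led one, with 0.41 (−0.24 to 1.07), so the name *Ifit3* does not describe most of the cells behind the value of 0.92. The *Ifit3* subcluster also had the lowest depth, at medians of 2419.5 and 2483.5 UMIs, and the highest mitochondrial share, at 12.1% and 10.8%, and it held 402 control and 794 telmisartan cells. All 3 fibroblast markers were detected in it, with *Col1a1* the most abundant, and summed to 9.35 and 22.3 CPM (1.26, 0.37 to 2.25), against 5.8 and 9.78 CPM over all macrophage-like cells (0.75). The part of these in its ratio was not tested. Weighted to the same mix of subclusters its ratio was 0.53, and without the *Serpinb2* subcluster 0.56.

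*Srxn1* encodes sulfiredoxin, which repairs overoxidized peroxiredoxins. It was 29.8 CPM in control and 43.2 CPM in telmisartan (0.54, 0.42 to 0.66). The *Gas6* subcluster had its largest difference, 27.6 and 48.1 CPM (0.80, 0.54 to 1.07), and the *Tnfsf15* subcluster the only lower value (−0.10, −0.33 to 0.12). In the division without list genes *Srxn1* was higher in all 8 subclusters, with 3 intervals above 0. The *Gas6*-led ratio was as large there (0.82, 0.585 to 1.07), and the *Tnfsf15*-led one was not lower (0.095, −0.117 to 0.305). The largest ratio was that of the *Serpina3g*-led one (1.06, 0.50 to 1.61), whose interval overlapped the *Gas6*-led one. *Prdx1*, the peroxiredoxin that removes hydrogen peroxide, was 745.5 and 785.2 CPM (0.08, 0.05 to 0.10). *Prdx1* was lower in the *Tnfsf15* subcluster, at 645.6 and 516.3 CPM (−0.32), and higher in the *Serpinb2* subcluster, at 1475.3 and 1845.3 CPM (0.32). In the division without list genes the *Tnfsf15*-led ratio was −0.28. The *Serpinb2*-led difference was smaller there, at 1468.7 and 1612.7 CPM. *Nqo1*, a quinone reductase often used to read NRF2 activity, had 24 UMIs in control and 23 in telmisartan macrophage-like cells (0.627 and 0.809 CPM), and its ratio was not resolved at this depth (−0.52 to 1.26).

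**Figure D1:**
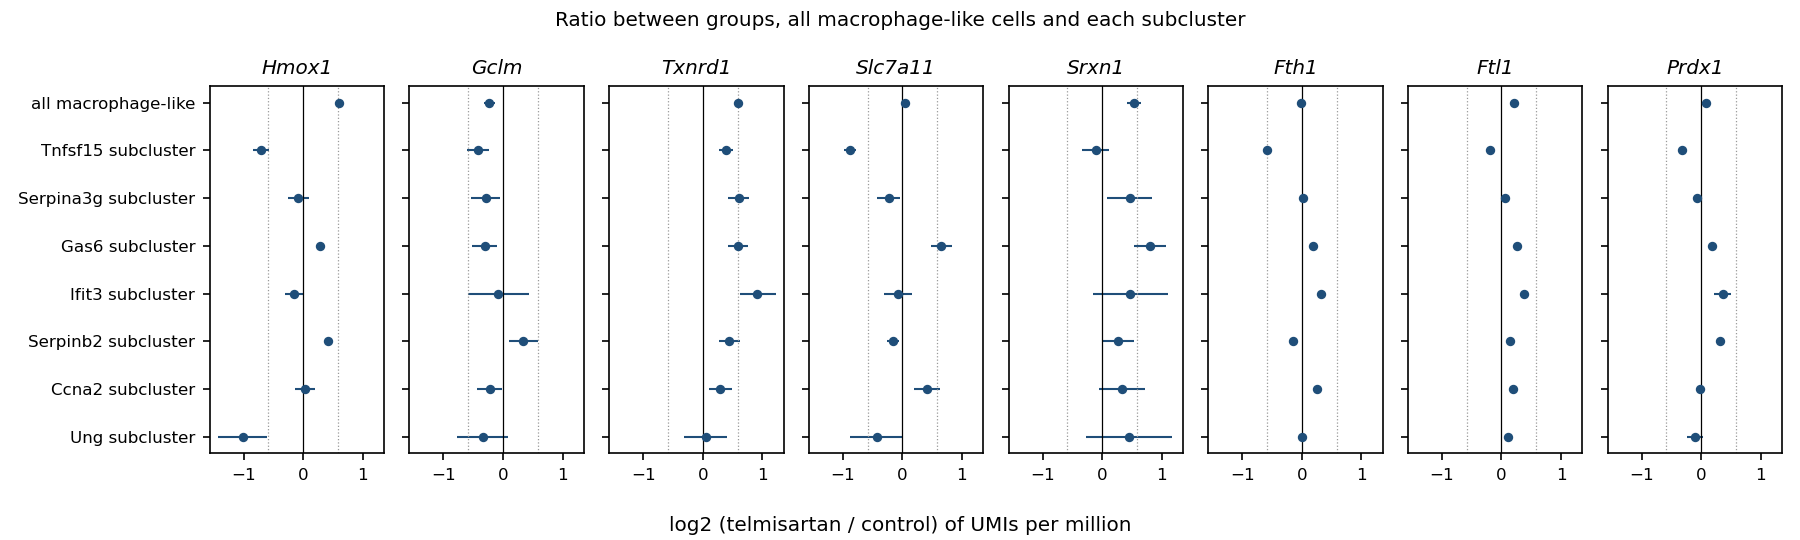
Log2 ratio of telmisartan to control (horizontal axis) of CPM for 8 members, over all macrophage-like cells and in each of 7 subclusters named by their first leading gene. Points are ratios, bars exact 95% intervals of counting error, and dotted lines mark 1.5-fold. *Txnrd1* lies above 0 in every subcluster, while *Hmox1* runs from −1.02 to 0.41.

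By subcluster, the members leaned in different directions. In the *Tnfsf15* subcluster the 8 members with at least 100 UMIs had a median log2 ratio of −0.37, where all genes had a median of 0.06. In the *Gas6* subcluster the same 8 members had a median of 0.27, against −0.07 for all genes. The *Ifit3* and *Serpinb2* subclusters had medians of 0.34 and 0.30, and the *Ccna2* subcluster 0.22. The *Serpina3g* and *Ung* subclusters lay near or below 0, at −0.02 and −0.10. In these 5 the median of all genes lay between −0.06 and −0.01. In the division without list genes the *Serpinb2*-led ratios were 0.36 for *Hmox1*, 0.39 for *Txnrd1* and 0.145 for *Srxn1*. They were 0.10 for *Gclm*, −0.11 for *Slc7a11* and −0.13 for *Fth1*, so the median of 0.30 depended on how that subcluster was drawn. Neutrophil markers in the *Tnfsf15* subcluster were lower with telmisartan as well, at 134.3 CPM in control and 70.8 CPM in telmisartan summed over 6 genes (−0.92, −1.07 to −0.78), with *Mmp8* the most abundant. Of these 6, *S100a8* and *S100a9* are among the 10 leading genes of the *Tnfsf15* subcluster. All 11 macrophage or monocyte markers were detected in it and summed to 19332 and 15694 CPM (−0.30), with *Lyz2* the most abundant, while 8 T cell markers, led by *Skap1*, summed to 5.27 and 12.5 CPM (1.25) and 8 dendritic cell markers, led by *Ccr7*, to 10.1 and 15.1 CPM (0.58). In the *Serpinb2* subcluster the macrophage or monocyte markers summed to 10836 and 8708.9 CPM and the 6 neutrophil markers to 358.9 and 390.3 CPM, the latter far from the 14678 and 9224.2 CPM of neutrophil-like cells. In the *Gas6* subcluster the dendritic cell markers summed to 11.25 and 17.5 CPM (0.64, 0.21 to 1.07). The neutrophil markers there summed to 83.55 and 109.7 CPM (0.39, 0.23 to 0.55), and 3 fibroblast markers to 10.01 and 14.19 CPM (0.50, 0.04 to 0.97). Its T cell markers (0.01) and macrophage or monocyte markers (0.05) differed little. The part of all these markers in the values of the members was not tested.

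The *Serpinb2* subcluster had the highest level among the subclusters for the 8 members with at least 100 UMIs in both groups, although for *Gclm* in control the *Ung* and *Ccna2* subclusters overlapped it. *Nqo1*, with at most 6 UMIs per subcluster and group, and *Slc40a1*, with at most 8, could not be placed. Against the other macrophage-like cells, with both groups together, *Hmox1* was 12.2 times as high there, *Slc7a11* 5.09 times, *Srxn1* 3.29 times, *Ftl1* 2.62 times, *Prdx1* 2.42 times, *Txnrd1* 2.21 times, *Fth1* 2.17 times and *Gclm* 1.82 times. The subclusters were drawn from the same cells, so these folds are a description and no test. Its other leading genes include *Il6*, *Ptges* and *Cd200*. Its cells were shallower, with a median of 3948 UMIs, than the 7588 of macrophage-like cells as a whole. The division made without members and list genes kept its *Serpinb2*-led subcluster highest for the same 8 members in both groups, again with *Gclm* in control overlapping the *Ccna2*-led and *Ung*-led ones.

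The order of the levels over the 7 subclusters and 3 other classes differed between members. *Hmox1* followed, in both groups, the order *Serpinb2* subcluster, neutrophil-like cells, *Gas6* subcluster and *Ifit3* subcluster, although 1 cell held 42 of the 75 control UMIs of neutrophil-like cells, with dendritic-like cells lowest at 35.3 CPM in control and 56.8 CPM in telmisartan. In control the *Serpina3g* and *Ccna2* subclusters could not be told apart, nor could the *Tnfsf15* subcluster from T-like cells or from the *Ung* subcluster. In telmisartan the neutrophil-like cells overlapped the *Gas6* and *Ifit3* subclusters, so their place was not resolved, the *Serpina3g*, *Ccna2* and *Tnfsf15* subclusters overlapped each other, and so did the *Ung* subcluster, T-like cells and dendritic-like cells, so the lowest place was not resolved in that group. *Slc7a11* was highest in neutrophil-like cells, then in the *Serpinb2* subcluster, and lowest in T-like cells at 24.3 and 19.1 CPM. *Txnrd1* was highest in neutrophil-like cells in control, at 417.2 CPM. Of its 38 UMIs there, 12 lay in 1 cell and 18 in 3 cells. In telmisartan the neutrophil-like cells had 317.3 CPM from 15 UMIs, 13 of them in 3 cells, and overlapped the *Serpinb2* subcluster. At the lower end T-like cells and the *Gas6* subcluster overlapped in both groups.

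**Figure D2:**
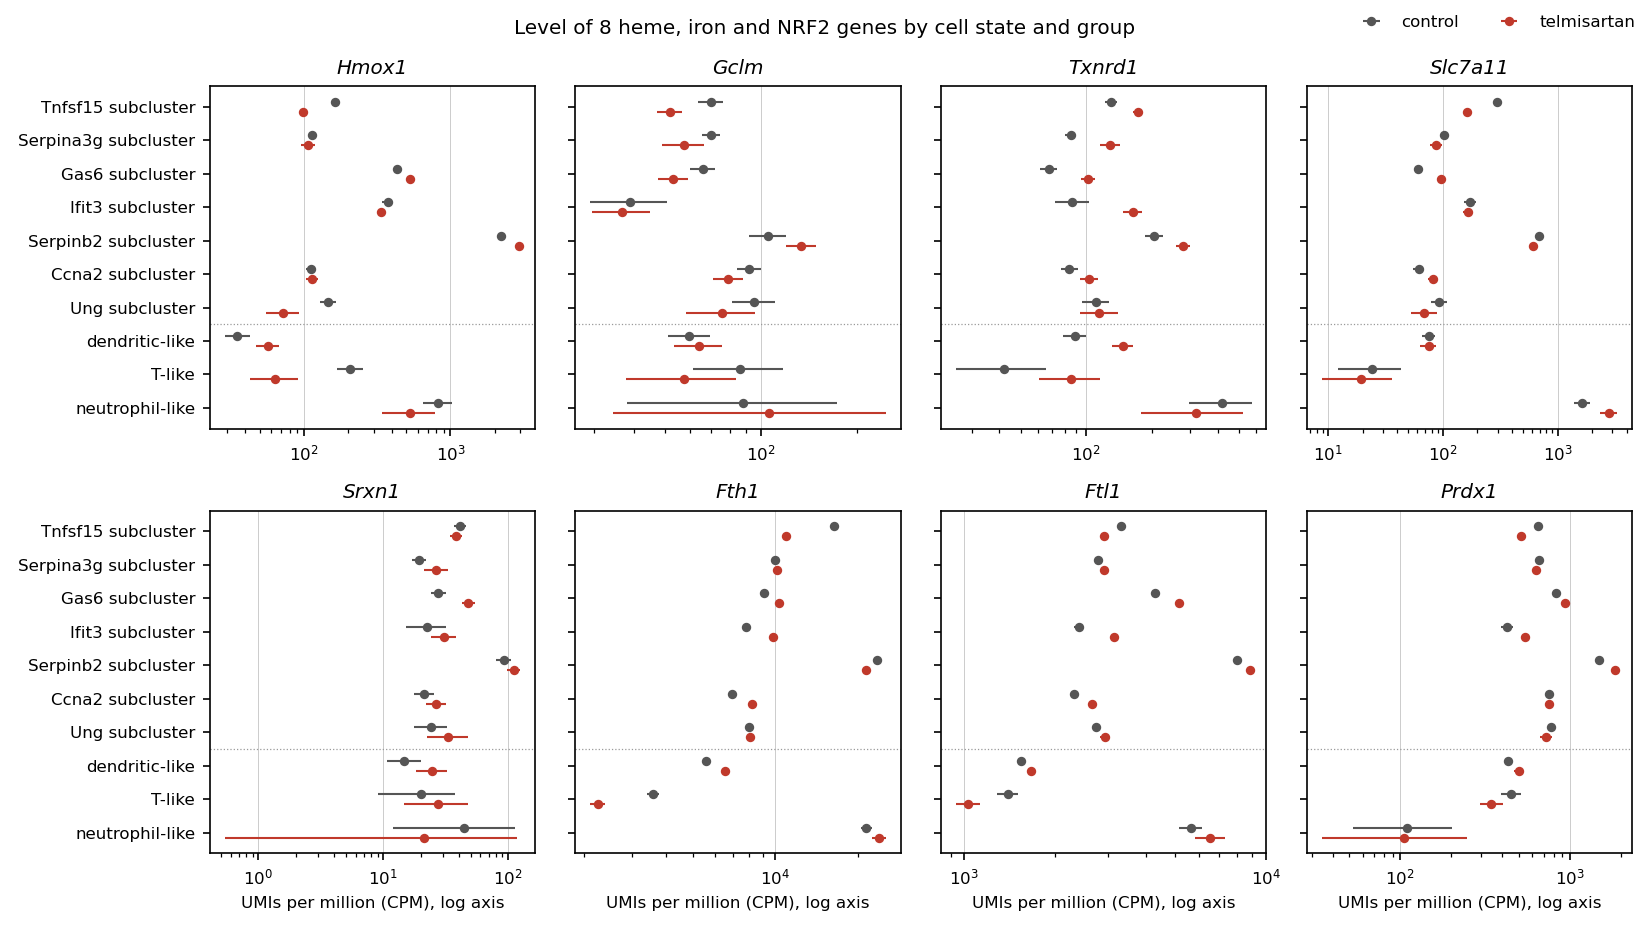
CPM (horizontal log axis) of 8 members in 7 macrophage-like subclusters, named by their first leading gene, and in the 3 other classes, for control (grey) and telmisartan (red). Points are summed levels and bars exact Poisson 95% intervals. *Hmox1* peaks in the *Serpinb2* subcluster at 2196 and 2922.2 CPM, and *Slc7a11* in neutrophil-like cells at 1635.8 and 2792.6 CPM.

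Neutrophil-like cells combined high *Slc7a11* with low *Prdx1*. *Slc7a11* was 1635.8 CPM in control and 2792.6 CPM in telmisartan (log2 ratio 0.77, 0.42 to 1.12), from 149 and 132 UMIs. *Fth1* was 21474 and 23886 CPM (0.15, 0.05 to 0.26). *Prdx1* was 109.8 and 105.8 CPM, from 10 and 5 UMIs, below every macrophage subcluster. *Hmox1* was 823.4 and 528.9 CPM (−0.64, −1.35 to 0.03), and 42 of its 75 control UMIs lay in 1 cell. With 47 and 24 cells, a few cells weigh heavily on each of these values.

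Dendritic-like cells shared the *Txnrd1* difference, with 88.4 CPM in control and 146.7 CPM in telmisartan (0.73, 0.49 to 0.98). *Srxn1*, from 43 and 51 UMIs and so below the minimum of 100, is not read there. *Hmox1*, scarce in this class, was 35.3 and 56.8 CPM (0.69, 0.29 to 1.08). Of its 118 telmisartan UMIs, 37 came from 1 cell. The 7 members with at least 100 UMIs in dendritic-like cells had a median log2 ratio of 0.21, against −0.02 over all 5838 genes with as many.

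In T-like cells the 4 members with at least 100 UMIs had a median log2 ratio of −0.555, where the median over 1663 genes was 0.02. Below that minimum, *Txnrd1* and *Srxn1* had higher levels with telmisartan and *Gclm* and *Slc7a11* lower ones, and their ratios are not read. *Hmox1* was 207.4 CPM in control and 63.8 CPM in telmisartan (−1.70, −2.35 to −1.09), but 59 of the 94 control UMIs lay in 1 of 73 cells. *Fth1* was 3576.3 and 2243.8 CPM (−0.67), and 3 control cells held 587 of its 1621 UMIs. Macrophage or monocyte markers, all 11 of which were detected in T-like cells, summed to 5892.9 CPM in control and 4613.2 CPM in telmisartan, with *Lyz2* the most abundant. The part of macrophage transcripts in these T-like values was not tested.

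Shares of cells with a UMI were compared after every cell had been thinned to 1000 UMIs, which left out 45 control and 72 telmisartan macrophage-like cells. *Hmox1* was then detected in 15.4% of control cells (14.3 to 16.6%) and 20.1% of telmisartan cells (18.8 to 21.4%). Without thinning the shares were 50.8% and 48.5%, where control cells were deeper, at a median of 9021 against 6473 UMIs. *Txnrd1* was detected in 8.98% and 14% of thinned cells (45.2% and 49.6% unthinned), and *Srxn1* in 2.65% and 4.25% (18% and 20% unthinned). *Gclm* went the other way, with 6.51% and 4.89% (42% and 28.6% unthinned). *Fth1* was found in nearly every cell, 99% and 99.2% after thinning.

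Free RNA can give UMIs in cells that do not express a gene, so T-like cells, with median depths of 3951 and 3111 UMIs, were read beside the other classes. How much of their signal is free RNA was not tested. Thinned to 500 UMIs, *Hmox1* was found in 2.74% of control and 1.77% of telmisartan T-like cells (13.7% and 15% unthinned), against 10.8% and 13.7% of macrophage-like cells. *Slc7a11* was found in 40.4% and 54.2% of neutrophil-like cells and 7.92% and 8.75% of macrophage-like cells, with 0 of 73 and 2 of 113 T-like cells. Both genes were therefore detected more often in the classes named than in T-like cells. For *Gclm*, *Txnrd1* and *Srxn1* the intervals of macrophage-like and T-like cells overlapped in both groups, with *Gclm* in 3.08% of control macrophage-like and 6.85% of control T-like cells. In the *Serpinb2* subcluster, *Hmox1* was detected in 46.1% of control cells (41.1 to 51.1%) and 61.5% of telmisartan cells (57.1 to 65.8%) thinned to 1000 UMIs.

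*Hmox1* was concentrated in few cells within both groups. The 10% of macrophage-like cells with the most *Hmox1* held 77.5% of its summed level in control and 76.8% in telmisartan. For *Slc7a11* the top 10% held 64.8% and 66.7%, for *Txnrd1* 53.5% and 50.6%, and for *Fth1* 29.4% and 26.2%. Sparse counts raise such shares for genes of low level, so the genes are not ranked by them.

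Over single macrophage-like cells the members were only loosely related. Pearson's r of ln(1 + UMIs per 10000) was highest for *Hmox1* with *Ftl1*, at 0.42 over 4053 control cells and 0.46 over 3999 telmisartan cells. *Fth1* with *Ftl1* gave 0.41 and 0.41, and *Ftl1* with *Prdx1* 0.37 and 0.37. Depth differs between cells and the counts are sparse, so weak values such as 0.09 and 0.04 for *Gclm* with *Txnrd1* show little. Over the 14 pools formed by 7 subclusters and both groups, the log2 levels of *Srxn1* and *Ftl1* had r = 0.92, *Slc7a11* and *Fth1* 0.91, and *Hmox1* and *Ftl1* 0.90. These pools share a capture, and the *Serpinb2* subcluster is high for each of these genes.

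Over 20 pools, with the other classes added, the genes most like *Hmox1* by Pearson's r of log2(CPM + 1) among 8651 genes were *Xdh* (0.91), *Sat1* (0.89) and *Rbms1* (0.88). For *Slc40a1*, whose pattern rests on neutrophil-like cells, they were *Amz2* (0.97), *Ubap1* (0.96) and *Vps4b* (0.96).

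The lists that follow were read in macrophage-like cells, where 42.9% of all genes were higher with telmisartan, 4.73% were at least 1.5-fold higher and the median log2 ratio was −0.05. Of 26 NRF2 targets other than the members, 22 had at least 100 UMIs, 12 were higher and 10 lower, with a median of 0.08. The 2 past 1.5-fold were *Sqstm1*, an autophagy receptor that binds KEAP1, at 207.6 and 406.2 CPM (0.97), and the glutathione transferase *Gstm1*, at 44.7 and 72.9 CPM (0.71). *Gclc*, the catalytic partner of *Gclm*, was 27.2 and 36.6 CPM (0.43), opposite in direction to *Gclm*. *Sqstm1* was also among the 3 targets of highest level. The others of these differed little, thioredoxin *Txn1* at 1053.9 and 991.4 CPM (−0.09) and *Prdx6* at 334.3 and 369.6 CPM (0.15). *Sqstm1* was higher in all 7 subclusters and in all 8 of the division without list genes, where the *Serpinb2*-led subcluster went from 588.6 CPM in control to 1112.3 CPM in telmisartan (0.92).

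The 11 regulators of the pathway had a median of 0.18, with 8 higher and 3 lower, where 42.9% of all genes were higher. *Nfe2l2* itself was 343.9 CPM in control and 464.2 CPM in telmisartan (0.43), and it was higher in all 7 subclusters with every interval above 0. The small MAF proteins, partners that bind DNA with NRF2 or BACH1, gave the 2 genes past 1.5-fold, *Maff* at 41.4 and 85.4 CPM (1.04) and *Mafk* at 25.4 and 49.1 CPM (0.95). Both were higher in every subcluster of either division. The repressor *Bach1* was also higher, at 80.1 and 103.7 CPM (0.37), in all 7 subclusters. *Keap1* was 24.8 and 23.3 CPM (−0.09), and the ligase subunit *Rbx1* 208.4 and 189.2 CPM (−0.14). Another ligase subunit of the list, *Cul3*, named after its value had been seen, was higher at 129.2 and 146.6 CPM (0.18). Transcripts of *Nfe2l2*, of the small MAF partners *Maff* and *Mafk* and of the repressor *Bach1* were thus higher side by side.

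Genes that handle heme other than *Hmox1* showed no difference past 1.5-fold. Of 20, 16 had at least 100 UMIs, 11 were higher and 5 lower, with a median of 0.10. *Slc48a1*, which carries heme out of the phagolysosome, was 44.8 and 62.4 CPM (0.48). *Cpox*, an enzyme of heme synthesis, was 37.9 and 25.5 CPM (−0.57), just inside that size and lower in all 7 subclusters. *Alas1*, which starts heme synthesis, was 65.8 and 57 CPM (−0.21). The constitutive heme oxygenase *Hmox2* was 65.1 and 77.8 CPM (0.26), the hemopexin receptor *Lrp1* 417.4 and 470.5 CPM (0.17), and haptoglobin (*Hp*) 7 and 9.71 CPM (0.47).

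Iron genes other than the members were also without a difference past 1.5-fold, with 7 higher and 11 lower among 18 of 22 and a median of −0.03. Among those with at least 200 UMIs, the largest differences were those of transporters that move iron out of phagosomes and endosomes. *Slc11a1*, or NRAMP1, was 136 and 188.5 CPM (0.47) and was higher in all 7 subclusters, and *Slc11a2* was 13.7 and 19.4 CPM (0.51). *Fbxl5*, the iron sensor that marks IRP2 for degradation, was 277.7 and 231.6 CPM (−0.26). The iron chaperones *Pcbp1* and *Pcbp2* were near equality, with ratios of −0.02 and −0.02.

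Peroxiredoxin, thioredoxin and glutathione enzymes had a median of −0.03, with 11 higher and 13 lower among 24 of 25 and 0 past 1.5-fold in either direction. The metallothionein *Mt1* was 1919.6 and 1809.9 CPM (−0.08) and *Prdx5* 1165.7 and 1243.5 CPM (0.09). *Txnip*, an inhibitor of thioredoxin, was 106.4 and 78.9 CPM (−0.43). Mitochondrial *Prdx3* was 45.3 and 35.3 CPM (−0.36). *Txnrd1* thus passed a size that no gene of this list reached.

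*Slc7a11* is also a target of ATF4, the factor of the amino acid response, so 17 genes of that response were read beside it. Of 15 with at least 100 UMIs, 8 were higher and 7 lower, with a median of 0.01. *Asns*, asparagine synthetase, was 1 of the genes past 1.5-fold, at 9.09 and 4.43 CPM (−1.04), and *Trib3* the other, at 3.63 and 5.7 CPM (0.65), with *Ddit3* just inside at 14.5 and 21.7 CPM (0.58). *Slc3a2*, which pairs with the *Slc7a11* product in the membrane, was 321 and 420.1 CPM (0.39) and was higher in all 7 subclusters. *Cebpb* was 414.6 and 511.3 CPM (0.30) and *Atf3* 478.9 and 387.7 CPM (−0.31).

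Of the 7 genes of the phagocyte NADPH oxidase, a source of superoxide, 6 were lower and 1 higher, where 57.1% of all genes were lower. Their median of −0.12 lay within the quartiles of all genes, and none passed 1.5-fold. *Cyba* was 817.1 and 711.4 CPM (−0.20), *Cybb* 749.2 and 690.8 CPM (−0.12), *Ncf1* 300.6 and 270.5 CPM (−0.15) and *Rac1* 533.7 and 453.4 CPM (−0.23).

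Hypoxia genes were read because low oxygen also bears on *Hmox1*, and 10 of 12 were higher and 2 lower, with a median of 0.14, where 42.9% of all genes were higher. *Adm* was the 1 gene past 1.5-fold (0.84, from 60 and 80 UMIs) and was named after its value had been seen. *Vegfa* was 589.7 and 750.2 CPM (0.35), *Ndrg1* 155.6 and 215 CPM (0.47) and *Hk2* 91.8 and 136.8 CPM (0.58), while *Pgk1* and *Ldha* had ratios of −0.01 and 0.08. Summed over the 12, the level was highest in the *Serpinb2* subcluster, at 12016 and 11008 CPM (−0.13), and in the *Tnfsf15* subcluster it was also lower with telmisartan, at 6896.3 and 5238.6 CPM (−0.40). In the other 5 subclusters it was higher, from 0.02 in the *Serpina3g* subcluster, with an interval that included 0, to 0.44 in the *Gas6* subcluster. Weighted to the same mix of subclusters, the median of the list was −0.02. Any part of hypoxia in the levels of the members was not tested.

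Of 6 genes chosen to mark tumor cells, 5 were in the table, and in macrophage-like cells they summed to 61 CPM in control and 44.4 CPM in telmisartan. *Cdh1* made up most of this and was the 1 gene with at least 100 UMIs (−0.46).

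**Figure D3:**
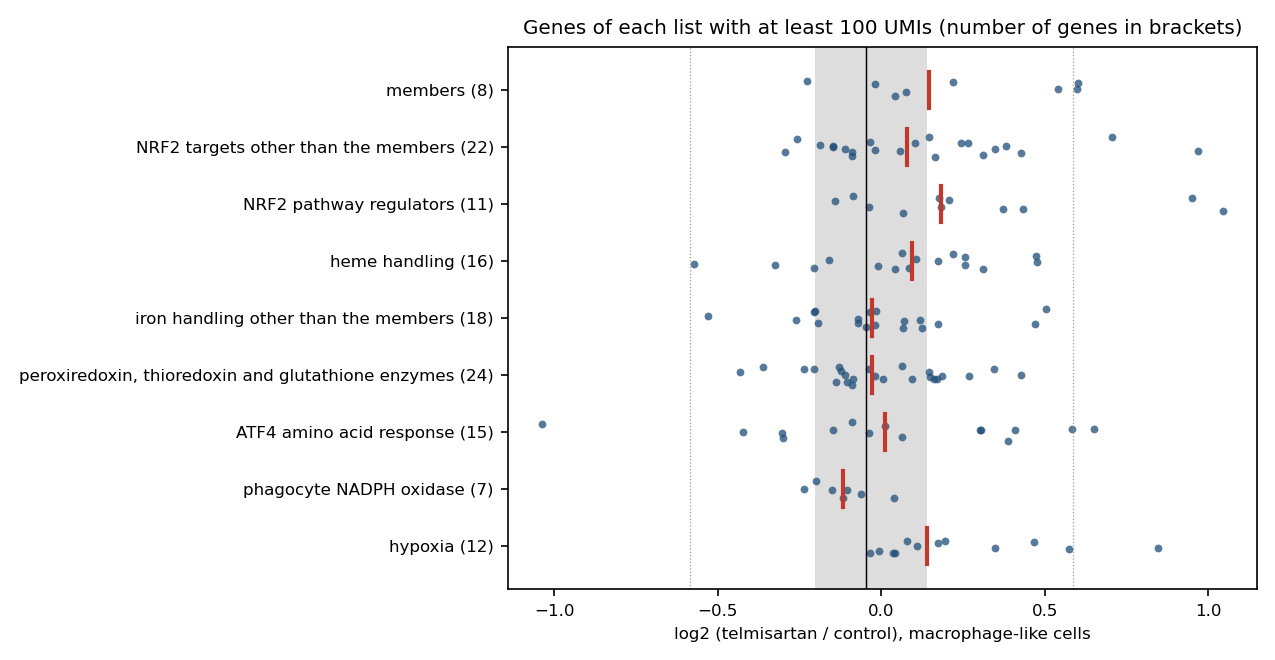
Log2 ratio of telmisartan to control in macrophage-like cells (horizontal axis) for each gene with at least 100 UMIs, by list. Points are genes, red bars list medians, the grey band the quartiles of all 11075 genes (−0.20 to 0.14), the vertical line their median and dotted lines 1.5-fold. Among the members and the lists with more than 1 gene shown, the medians run from −0.12 for the NADPH oxidase to 0.18 for the pathway regulators.

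In the GENCODE M21 annotation of GRCm38, *Hmox1* lies at chr8:75093621-75100589, *Nqo1* at chr8:107388225-107403206, *Gclm* at chr3:122245557-122270732, *Txnrd1* at chr10:82833951-82897712, *Slc7a11* at chr3:49892526-50443614, *Srxn1* at chr2:152105516-152111376, *Fth1* at chr19:9980598-9985098, *Ftl1* at chr7:45457944-45459884, *Slc40a1* at chr1:45908068-45926523 and *Prdx1* at chr4:116685544-116700822. All are protein-coding, and the *Ftl1* copy *Ftl1-ps1* lies elsewhere, at chr13:74399694-74407346.

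Promoter sequences of RefSeq on GRCm38.p6, from 250 bases before to 50 bases after a start, were available for 8 members, with 3 starts for *Txnrd1* and 2 for *Fth1*, and none for *Hmox1* and *Slc40a1*. They were searched on both strands for TGACNNNGC, the core of the antioxidant response element, for its variant TGAGNNNGC, and for TGATGCAA, an ATF4 composite element. Of 32817 promoters, 12.4% held the first, 17.7% the second and 0.896% the third. The first was found in *Gclm*, *Txnrd1*, *Srxn1* and *Prdx1*, the second in *Slc7a11*, *Srxn1* and *Prdx1*, and the third in *Slc7a11*, once on each strand. The first and second differ in 1 letter and cannot match the same bases on 1 strand. *Nqo1*, *Fth1* and *Ftl1* held none in this window. A match is a description and says nothing of binding in these cells. A run is printed for each of the 5 members with a match, written along the gene's strand with the match or its reverse complement in capitals. Capitals mark both TGATGCAA matches of *Slc7a11*, TGAGNNNGC in *Srxn1* and TGACNNNGC in *Gclm*, *Txnrd1* and *Prdx1*. The runs lie at chr3:50443643-50443689 on the minus strand for *Slc7a11* and on the plus strand at chr3:122245403-122245451 for *Gclm*, chr10:82859094-82859142 for *Txnrd1*, chr2:152105459-152105507 for *Srxn1* and chr4:116685446-116685494 for *Prdx1*.
Slc7a11: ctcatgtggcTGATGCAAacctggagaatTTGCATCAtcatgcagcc
Gclm: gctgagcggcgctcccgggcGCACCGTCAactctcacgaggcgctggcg
Txnrd1: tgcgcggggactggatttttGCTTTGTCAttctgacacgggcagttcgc
Srxn1: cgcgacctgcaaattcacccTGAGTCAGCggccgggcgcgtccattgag
Prdx1: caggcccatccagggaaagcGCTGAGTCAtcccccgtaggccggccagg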

How the data were processed

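The deposited values were UMI counts per gene and cell, made by the authors with the BD Rhapsody WTA pipeline 1.11 on GRCm38 with GENCODE M19 genes, and Sample Tag read counts per cell; neither had been normalized. All 20726 putative cells stood in both tables. A cell took the tag with at least 75% of at least 10 tag reads, which left out 1580 cells split between tags and 186 with fewer reads. Cells with under 150 or over 5000 genes, or with over 20% of UMIs from mitochondrial genes, were left out. The automatic Scrublet threshold marked 0 cells, so the 942 cells (9.51%) with the highest scores were removed. Cells were clustered in Seurat 5.3.0 (R 4.3.3; 2000 variable genes, 30 components, resolution 0.5, and 0.45 for macrophage-like cells) and named from markers. UMIs were summed per class or subcluster and group, with intervals from SciPy 1.17.1 under Python 3.11.15, NumPy 2.4.6 and pandas 2.3.3; figures were drawn in matplotlib 3.10.9. A size of 1.5-fold and a minimum of 100 UMIs over both groups were used.

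The members and the 10 gene lists were chosen with earlier results of these data known. Named were all members and, from each list, the 3 genes of highest level and the 3 of largest absolute log2 ratio with at least 200 UMIs, plus *Nfe2l2*, *Keap1* and *Bach1*; not every gene under this rule is described. Genes compared for likeness had at least 500 UMIs. Alternatives were a tag share of 90%, at least 500 genes, at most 10% mitochondrial UMIs, no doublet removal, resolutions of 0.3 and 0.8, other scalings (per-cell means, natural log, none, totals without mitochondrial and ribosomal or without ferritin genes, TMM factors from edgeR 4.0.16), thinning to 1000 UMIs, and weighting to a common mix of subclusters. The script for ratios was tested on simulated data.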

Additional observations from a re-analysis of the deposited data

How the results depend on the processing

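No paired analysis was possible because each group is 1 pool. The count of 2 members at least 1.5-fold higher became 0 without doublet removal, with means of ln(1 + UMIs per 10000), with UMIs per cell unscaled and with weighting to a common mix of subclusters, and 1 without the cluster of lowest UMI counts. The count of 0 lower became 1 (*Gclm*) with UMIs per cell unscaled. The median log2 ratio of 0.15 became 0.21 with at most 10% mitochondrial UMIs, 0.12 without doublet removal, 0.093 with means of ln values, −0.26 unscaled and 0.11 with the common mix. Alternatives chosen after seeing the data gave 0 members higher and a median of 0.10 with no mitochondrial limit, and 0 and 0.052 without the *Serpinb2* subcluster. The unscaled values shift the median of all genes by −0.41, with 140 genes at least 1.5-fold higher and 3244 lower, and the ln means by −0.15, with 351 and 680, against 524 and 248; thinning to 1000 UMIs gave 924 and 882, and per-cell means 613 and 389. The other alternatives left the counts of members within 1.5 times and the median within the medians of the interval limits, although with thinning and with per-cell means *Srxn1* (0.77 and 0.63) passed 1.5-fold in place of *Hmox1* (0.58 and 0.52). *Hmox1* was higher in 17 of 17 alternatives (0.19 to 0.71), as were *Txnrd1* (0.19 to 0.67) and *Srxn1* (0.13 to 0.77), and *Gclm* was lower in 17 (−0.64 to −0.16). *Slc7a11* kept its sign in 12, *Prdx1* in 14, *Fth1* in 15 and *Ftl1* in 16. The unscaled alternative, which moves all genes alike, was the only one that turned *Ftl1*, and it also turned *Slc7a11* and *Prdx1*. A turn of that kind does not bear on the stability of the member itself. Over single members, 120 of the ratios stayed within their intervals and 50 moved. Of the levels in classes 27 of 40 moved, of the spreads over subclusters 23 of 33, and of the list medians 24 of 153. With 1 pool per group, differences between mice cannot be told apart from treatment, and ratios of a single gene from under 100 UMIs in a class are not read. Within subclusters that minimum was not applied to the counts of higher and lower subclusters. Nor was it applied to the *Txnrd1* ratio of the *Ifit3*-led one, from 35 and 52 UMIs.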
